A study of Mus musculus with 4 samples.

Results

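The alkaline phosphatase family of the mouse was described from its 4 genes, Alpi, Akp3, Alppl2 and Alpl, out of 55487 genes in the count table of mouse small intestinal (SI) organoids. The genes were chosen by name, because intestinal alkaline phosphatase (IAP) serves as an enterocyte readout in the study, and their symbols were matched to gene identifiers. Of the 4 genes, 2 (Alpi and Akp3) passed the filter on low counts and were tested, among 17155 tested genes. SI organoids are epithelial cultures grown from intestinal crypts, and they hold stem cells and the cell types that descend from them. Both groups were infected with lentivirus and kept in puromycin at 2 μg/ml, which selects the cells that carry the vector. The control group, with replicates 1 and 2, carried a miRNA mimic control, and the other group, with replicates 3 and 4, carried a miR-181a-5p mimic for stable overexpression of that miRNA. The labels give no strain, age or sex of the mice, and they do not say whether a group's 2 libraries stem from different mice or cultures, so p-values measure only the spread between these libraries. Mature miR-181a-5p was not measured in these libraries.

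Alkaline phosphatases are zinc enzymes that split phosphate from many substrates and are held on the outer face of the plasma membrane by a glycosylphosphatidylinositol (GPI) anchor. The intestinal enzymes sit on the enterocyte brush border, where they remove phosphate from bacterial lipopolysaccharide and from nucleotides. Alpi encodes the intestinal enzyme found along the small intestine, and Akp3 encodes the mouse intestinal enzyme known from the duodenum. Alppl2 encodes the placental-like or embryonic enzyme, and Alpl the tissue-nonspecific enzyme of bone, liver and kidney, where it acts in mineralization.

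Alpi (ENSMUSG00000079440) lies on chromosome 1 of GRCm38 from 87098002 to 87101606 on the minus strand. Akp3 (ENSMUSG00000036500) lies next to it from 87124973 to 87127912 on the plus strand. Alppl2 (ENSMUSG00000026246) lies on the other side of Alpi, from 87086694 to 87089928 on the minus strand. Alpl (ENSMUSG00000028766) is on chromosome 4 from 137741733 to 137796384 on the minus strand.

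The 3 genes of chromosome 1 resemble each other in sequence, which bears on how reads are assigned to them. The coding sequences of Alpi (1665 bases) and Akp3 (1680 bases) were 79.9% identical, those of Alpi and Alppl2 77.8%, and those of Akp3 and Alppl2 73.7%. Alpl was further away, between 58.1% and 61.8% identical to the others. The longest run of identical bases between the Alpi and Akp3 transcripts had 68 bases. It is shown here within 100 bases, the length of the reads, centred on the run. Some other windows of 100 bases differed between the 2 genes by only 2 bases. Capitals mark the 3 bases that differ. The stretch is coding and spans exons 2 and 3 of each gene, at chr1:87101264-87101352 and chr1:87101136-87101146 on the minus strand for Alpi, and at chr1:87125186-87125274 and chr1:87125392-87125402 on the plus strand for Akp3 (GRCm38, GENCODE transcripts).
Alpi: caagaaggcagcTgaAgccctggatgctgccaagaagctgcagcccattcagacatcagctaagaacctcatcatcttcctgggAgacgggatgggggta
Akp3: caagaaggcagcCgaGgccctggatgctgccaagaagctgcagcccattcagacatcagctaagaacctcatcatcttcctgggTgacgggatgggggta

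Of the 2238 windows of 100 bases in the Alpi transcript, 0 occurred without a mismatch in a transcript of another gene, and the same count of 0 held for the 1581 windows of Akp3, the 1993 of Alppl2 and the 2423 of Alpl. Within 2 mismatches, 25 windows of Alpi matched Akp3 and 25 windows of Akp3 matched Alpi. A further 57 Alpi windows came within 2 mismatches of Akp-ps1, an alkaline phosphatase pseudogene nearby on chromosome 1, which had 0 counts in all 4 libraries. The windows of Alppl2 were at least 6 mismatches from Alpi and from Akp3 and at least 3 from Akp-ps1. Those of Alpl were at least 23 mismatches from any other family gene. Shorter reads separate the genes less well, since 55 windows of 50 bases in Alpi and 35 in Akp3 also occurred exactly in another gene. Full-length reads of the 4 genes were therefore distinct in sequence, with the closest approach between Alpi and Akp3 in the first part of the coding sequence.

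**Figure D1:**
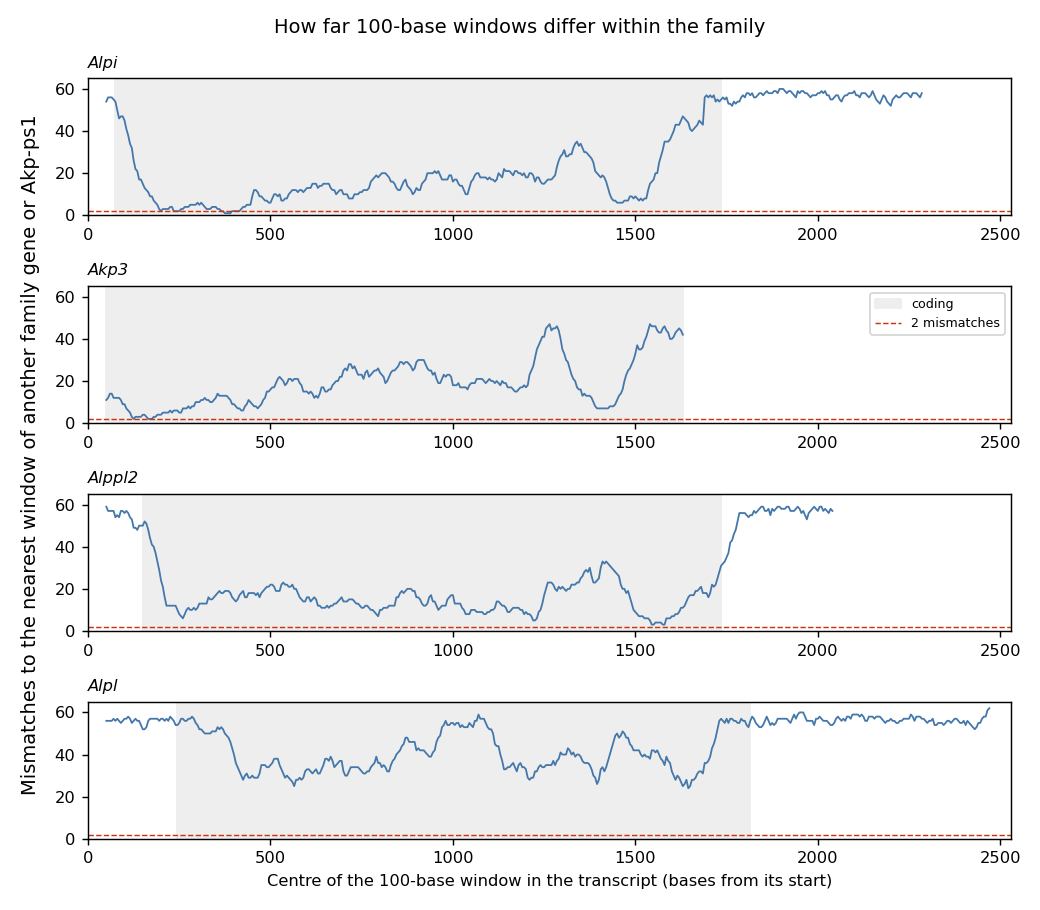
Fewest mismatches (y axis) between each 100-base window of a transcript and any window of the other alkaline phosphatase genes or the pseudogene Akp-ps1, by the position of the window's centre (x axis, bases). Grey marks coding sequence and the dashed line 2 mismatches. Early in the coding sequence Akp3 reaches the line and Alpi falls to 1 mismatch, from Akp-ps1, and Alpl stays at 23 mismatches or more.

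Decimals in the deposited counts show where reads were divided between the paralogs. RSEM splits a read that fits more than 1 transcript over those transcripts and adds up the parts per gene as the expected count, so that a value need not be whole. Alpi had 1514.84 expected counts in control 1, 3415 in control 2, 1996.75 in mimic 3 and 994 in mimic 4. Akp3 had 201.16 in control 1, 972 in control 2, 488.25 in mimic 3 and 131 in mimic 4. The values were not whole in control 1 and mimic 3, where the decimals of Alpi and Akp3 completed each other, and the 2 genes summed to whole numbers in every library (1716, 4387, 2485 and 1125 in the same order). The counts of Alppl2 and Alpl were whole in every library.

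The lengths behind the TPM, which are counts per transcript length scaled to the same total in each library, could be read from the tables. The counts per unit of TPM were 1.42 times as large for Alpi as for Akp3 in each of the 4 libraries, and the numbers of 100-base windows in their GENCODE transcripts stand in the ratio 1.42. The main GENCODE transcript of Akp3 holds coding sequence alone (1680 of 1680 bases), whereas that of Alpi holds 2337 bases. Reads from untranslated parts of Akp3 outside that transcript would not have been counted under such an annotation, which limits how far levels of Akp3 and Alpi can be compared.

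Alpi was the most abundant family member in every library and was higher in one library of each group than in the other. Its TPM were 20.8 in control 1, 58.7 in control 2, 33.8 in mimic 3 and 16.1 in mimic 4. The groups overlapped, with control 2 the highest, mimic 4 the lowest and mimic 3 above control 1. Normalized CPM (counts scaled to the library size corrected by TMM factors) were 74.9 ± 49.98 in controls and 45.8 ± 25.3 with the mimic (SD, n = 2 libraries each). The log2 fold change in miR-181a-5p mimic organoids as compared with control was -0.71 (SE 0.49, 95% interval -1.85 to 0.44), a fold of 0.613 with an interval from 0.277 to 1.36, and did not pass edgeR's quasi-likelihood test (adjusted p = 0.408). An exact two-sided permutation test gave p = 0.667, where 0.333 is the smallest value that 2 against 2 libraries allow.

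Akp3 followed the same order of libraries with a wider spread. Its TPM were 3.92 in control 1, 23.7 in control 2, 11.7 in mimic 3 and 3.01 in mimic 4. The groups overlapped again, and control 2 and mimic 3 were the 2 highest libraries. Normalized CPM were 18.3 ± 18.5 in controls and 9.63 ± 8.42 with the mimic (SD, n = 2). The log2 fold change was -0.93 (SE 0.82, 95% interval -2.83 to 0.98), which did not pass edgeR's quasi-likelihood test (adjusted p = 0.517), and the exact permutation test gave p = 0.667. Both intervals include 0, and reach down to 0.277 of the control level for Alpi and to 0.140 for Akp3, so that a change of either gene was not detectable with these replicates.

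**Figure D2:**
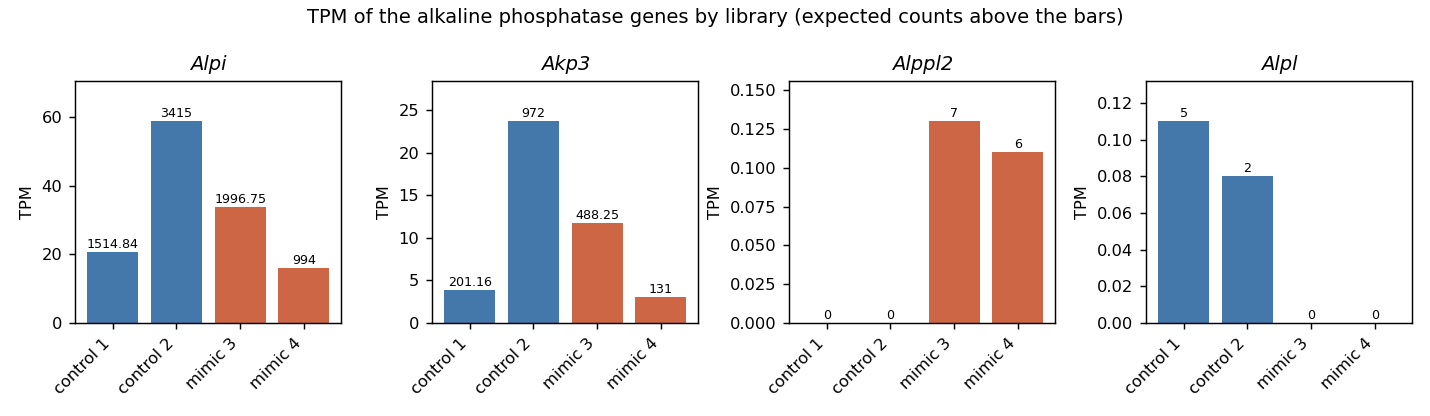
TPM (y axis, linear, a scale of its own for each gene) of Alpi, Akp3, Alppl2 and Alpl in the 4 libraries, controls in blue and miR-181a-5p mimic in orange, with expected counts above the bars. Alpi and Akp3 share the order control 2, mimic 3, control 1, mimic 4, and their groups overlap.

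The 2 libraries of a group differed more than the group means. In normalized CPM, Alpi was 2.79 times as high in control 2 as in control 1 and 2.28 times as high in mimic 3 as in mimic 4. For Akp3 these ratios were 5.98 and 4.24. The controls exceeded the mimic group by 1.63-fold for Alpi and 1.90-fold for Akp3 in their means. The SD within groups on the log2 scale was 0.94 for Alpi and 1.57 for Akp3, against a median of 0.10 over 9369 tested genes with at least 10 CPM. Among those genes Alpi stood at percentile 99.9 and Akp3 at percentile 99.98 of the spread between replicates.

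The direction of both fold changes rested on control 2. Without control 2 the log2 fold change was 0.22 for Alpi and 0.87 for Akp3, so that both changed sign. Without mimic 3 it was -1.41 for Alpi and -2.30 for Akp3, without control 1 it was -1.27 and -1.72, and without mimic 4 it was -0.23 and -0.22. In edgeR's quasi-likelihood test the adjusted p lay between 0.071 and 0.79 for Alpi and between 0.118 and 0.88 for Akp3 over these 4 fits, in which the lone library of a group was assumed to vary like the other group.

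**Figure D3:**
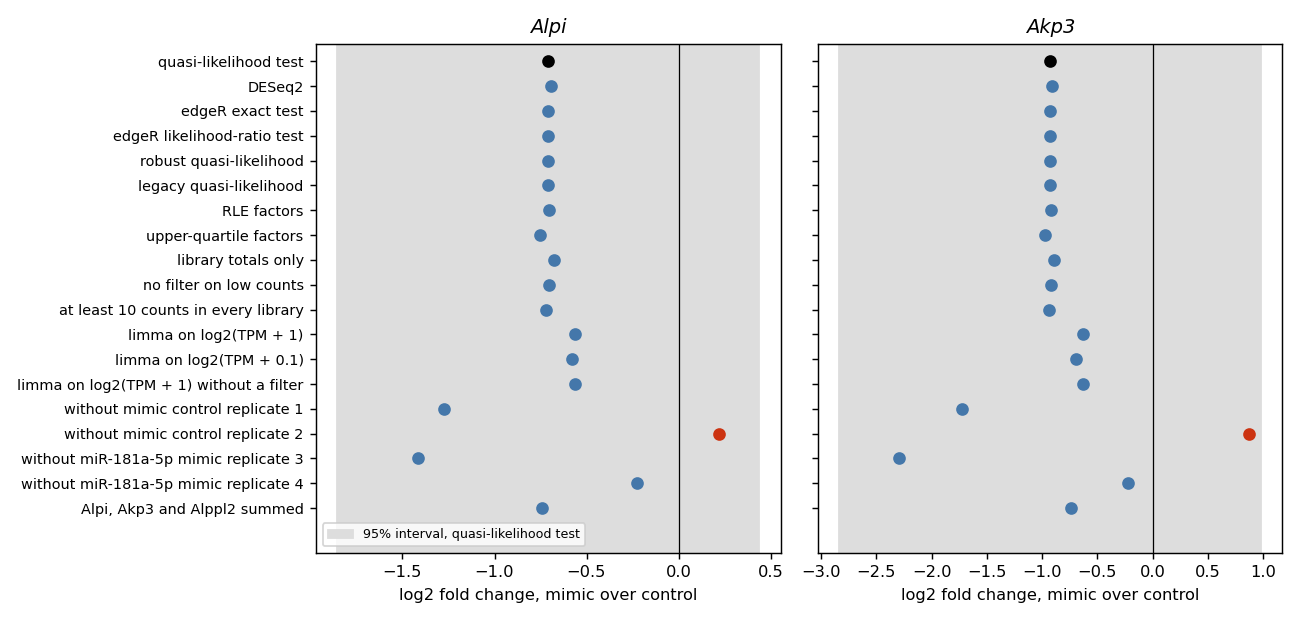
Log2 fold change of mimic over control (x axis) for Alpi and Akp3 under each processing alternative (y axis), with the quasi-likelihood estimate in black, its 95% interval in grey and a changed sign in red. The fold change turned positive only without control replicate 2, at 0.22 for Alpi and 0.87 for Akp3.

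The share of Akp3 in the 2 intestinal genes did not separate the groups either. Akp3 held 11.7% of the Alpi and Akp3 counts in control 1 (exact binomial 95% interval 10.2% to 13.3%) and 22.2% in control 2 (20.9% to 23.4%). It held 19.6% in mimic 3 (18.1% to 21.3%) and 11.6% in mimic 4 (9.83% to 13.7%). The intervals cover counting error only, and the 2 libraries of each group lay further apart than their intervals reach, while control 1 and mimic 4 were alike within theirs. In TPM, Alpi exceeded Akp3 by 5.30-fold and 2.48-fold in the controls and by 2.89-fold and 5.36-fold in the mimic libraries, so that Alpi led in all 4 libraries.

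A sum over the 3 chromosome 1 genes does not depend on how reads were divided between them. It came to 44.8 and 142 normalized CPM in the controls and to 79.6 and 31.8 with the mimic, and the groups overlapped. Fitted as 1 gene, the sum had a log2 fold change of -0.74, between the values of its 2 main members. All 4 family genes together took between 32.0 and 138 CPM of a library before correction by TMM factors.

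Alppl2 and Alpl were near 0 and fell outside the filter. Alppl2 had 0 counts in both controls, 7 in mimic 3 and 6 in mimic 4, with TPM of 0.13 and 0.11. The mimic libraries were both above the controls. Set against an assumed floor of 3 counts over the control group, the 13 counts gave a ratio of 4.55 for the mimic over control. Alpl had 5 counts in control 1, 2 in control 2 and 0 in both mimic libraries, with TPM of 0.11 and 0.08 in the controls. Against the same floor in the mimic group, its 7 counts gave a ratio of 2.22 for control over mimic. Both ratios leave out the counting error of the 13 and 7 counts, so that neither is a lower bound. The highest of these levels was 0.225 CPM, and without any filter edgeR's quasi-likelihood test gave adjusted p = 0.175 for Alppl2 and 0.256 for Alpl. In TPM, per length, the order of the genes was therefore Alpi, Akp3 and then Alppl2 and Alpl, with the last pair far below 1 and in an order that depended on the library.

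Of the 2 tested family genes, 0 were called by edgeR's quasi-likelihood test (adjusted p below 0.05 and a fold change of at least 2) and 0 reached an unadjusted p of 0.05, and neither was called by any other tool run. Over all tested genes, 2.06% were called in either direction and 1.47% were called as lower with the mimic. Neither gene had groups that did not overlap, against 58.4% of all tested genes whose normalized CPM did not overlap between groups. Alppl2 and Alpl, which were not tested, had such groups at counts of 7 or fewer.

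The genes whose pattern over the 4 libraries was most like that of Alpi were Ugt2b5, Ugt1a9, Fabp1, Rbp2 and Trib3. Likeness was the Euclidean distance between log2 normalized CPM centred on their mean, over 9368 other genes of at least 10 CPM. The distances were 0.56 for Ugt2b5 and 0.63 for Ugt1a9, which encode enzymes that attach glucuronic acid. Fabp1 (0.66) and Rbp2 (0.78) encode carriers of fatty acids and retinol in enterocytes, and Trib3 (0.85) a stress-induced pseudokinase. Akp3 was at rank 10 from Alpi, with a distance of 0.90. From Akp3, Alpi was the nearest of the genes searched, followed by Ugt2b5 (1.39), Fabp1, Ugt1a9 and Trib3 (1.56). Genes with a mean below 10 CPM were left out, so that a closer gene among them was not ranked. Zg16, a goblet cell marker left out in this way, had the order of libraries of Akp3. Its normalized CPM were 5.01 in control 1, 21.8 in control 2, 10.2 in mimic 3 and 1.66 in mimic 4.

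Fabp1 had 367 normalized CPM in control 1 and 668 in control 2, as compared with 325 in mimic 3 and 224 in mimic 4. It was highest in control 2, as were Alpi and Akp3, but its groups did not overlap. The log2 fold change of Fabp1 was -0.91, and its adjusted p by the edgeR test was 0.109. Rbp2 had 54.5 in control 1, 89.5 in control 2, 66.5 in mimic 3 and 46.5 in mimic 4, which is the order of libraries of Alpi. Ugt2b5 and Ugt1a9 had the same order. These genes were picked for their likeness to Alpi, so that a shared order follows largely from the choice. That order was found in 114 of the 9369 genes, or 1.22%, with Alpi itself counted. The likeness rests on 4 libraries and describes them only.

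**Figure D4:**
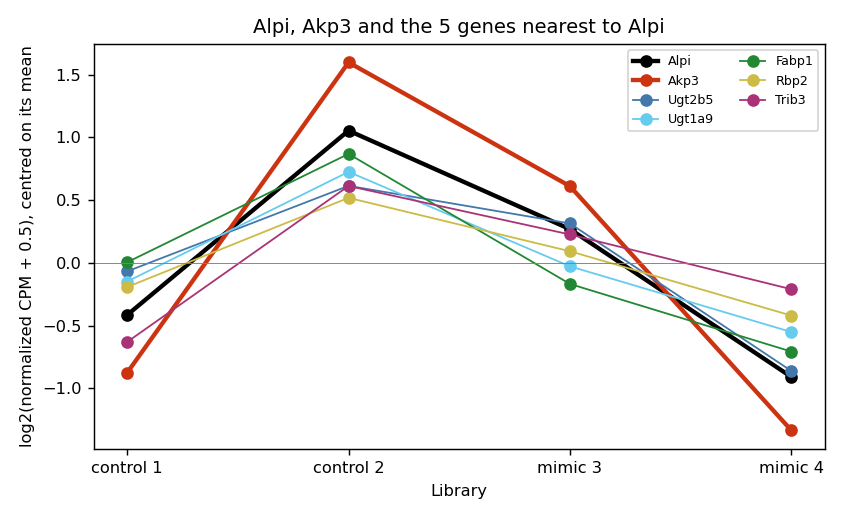
Log2(normalized CPM + 0.5), centred on its mean over the 4 libraries (y axis), by library (x axis) for Alpi (thick black), Akp3 (thick red) and the 5 genes nearest to Alpi. All 7 genes peaked in control 2, and Akp3 had the widest range.

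Alpi and Akp3 share stretches of promoter sequence with Alppl2, which was near 0. The 140 bases before the RefSeq start of each gene are shown because Alpi and Akp3 shared their order of libraries (RefSeq promoters, GRCm38.p6; matched by symbol for all 4 genes). Capitals mark 2 runs of 13 bases that a search of these sequences found in all 3, TTCAGTTCACAGG and GGGTGGGGCCAGG. The stretches lie at chr1:87101607-87101746 on the minus strand for Alpi, at chr1:87124814-87124953 on the plus strand for Akp3 and at chr1:87089929-87090068 on the minus strand for Alppl2.
Alpi promoter: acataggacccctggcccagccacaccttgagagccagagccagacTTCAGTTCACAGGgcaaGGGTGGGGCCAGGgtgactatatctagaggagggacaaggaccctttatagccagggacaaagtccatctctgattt
Akp3 promoter: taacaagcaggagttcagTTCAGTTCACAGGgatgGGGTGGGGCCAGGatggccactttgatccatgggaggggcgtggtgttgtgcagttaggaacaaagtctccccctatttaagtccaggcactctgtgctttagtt
Alppl2 promoter: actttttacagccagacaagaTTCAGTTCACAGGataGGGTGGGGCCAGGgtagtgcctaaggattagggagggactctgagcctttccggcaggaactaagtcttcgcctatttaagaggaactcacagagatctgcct

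RefSeq starts Akp3 at 87124954, which is 19 bases before the start given above, while its starts of Alpi and Alppl2 are the same as those above. Counted from the RefSeq starts, the first run began 94 bases before the start of Alpi, 122 before that of Akp3 and 119 before that of Alppl2, and the second began 77, 105 and 103 bases before it. Counted from the GENCODE start, the Akp3 distances were 141 and 124 bases. On either strand, TTCAGTTCACAGG was found before the start in 9 of 32851 promoters (0.0274%) and GGGTGGGGCCAGG in 15 (0.0457%). The bases of these promoters after the start were not searched. Neither was found in the promoters of Alpl. The runs were picked from the sequences themselves, and a shared run is a description of related genes and not a binding site.

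The family transcripts searched held no 7-base match to the seed of the miRNA that was overexpressed. The mature sequence is given with the seed, bases 2 to 8, in capitals (RefSeq).
miR-181a-5p: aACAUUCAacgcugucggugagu

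The matching site, TGAATGT on the transcript strand, was found in 0 of 1 transcript of Alpi, 0 of 2 of Akp3, 0 of 3 of Alppl2 and 0 of 8 of Alpl. The main Akp3 transcript is all coding sequence in the annotation used, so that its 3' UTR was not searched. It was found in 25.6% of the longest coding transcripts of 21901 genes, and in 18.8% of the 5591 of them that had 1500 to 2600 bases. The shorter match GAATGT, to seed bases 2 to 7, was found in 5 of 8 Alpl transcripts, in coding sequence. It is shown in capitals within 26 bases, at chr4:137755640-137755665 on the minus strand.
Alpl match: atgtagccaaGAATGTcatcatgttc

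Genes that serve the enzymes were described in 6 lists with 117 genes, of which 115 were found in the table, 107 were tested and 5 were called by edgeR's quasi-likelihood test, where 2.06% of all tested genes were called. The median log2 fold change over all tested genes was -0.01. Of the 14 genes that move or store zinc or related metals, all were tested and 0 were called, with a median of 0.07. The metallothionein genes Mt2 and Mt1 had log2 fold changes of 0.06 and 0.14, and Slc39a14, a zinc importer, had -0.54 (adjusted p = 0.137). Of the 28 genes that make and attach the GPI anchor, 0 were called, with a median of 0.07. Pigt, a subunit of the enzyme that attaches the anchor, had 0.32 (adjusted p = 0.0997), Pgap2, which remodels the anchor, had -0.25, and Pigq, which acts in its first step, had 0.15.

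Of the 28 genes of extracellular phosphate ester, nucleotide and pyrophosphate turnover, 22 were tested and 1 was called, with a list median of -0.14. Enpp1, which makes the pyrophosphate that alkaline phosphatases split, had 14.8 and 14.5 normalized CPM in control organoids, as compared with 6.32 and 7.81 in mimic organoids. Enpp1 fell in both mimic libraries, by 1.05 on the log2 scale (SE 0.16, edgeR adjusted p = 0.0221). Entpd2, an ectonucleotidase gene named after its values were seen, passed the p threshold but not the fold threshold, at -0.92 (adjusted p = 0.0462).

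Of the 17 enterocyte transcription factors linked to the intestinal gene, 0 were called, with a median of 0.04. Hnf4a had a log2 fold change of 0.24 (adjusted p = 0.217), Klf5 0.37 (adjusted p = 0.0936) and Vdr, the vitamin D receptor gene, -0.49 (adjusted p = 0.0732). Cdx1, at 0.47, and Thra, the thyroid hormone receptor gene, at -0.50, had adjusted p of 0.0477 and 0.0417 with changes under the fold threshold, and were named after their values were seen.

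Of the 17 brush border enzymes and proteins, 16 were tested, 2 were called higher and 1 lower, and the list median was 0.00. Anpep, which encodes aminopeptidase N, had 1851 and 1245 normalized CPM in control organoids, as compared with 289 and 412 in mimic organoids. It fell by 2.14 on the log2 scale (SE 0.23, adjusted p = 0.00812). Enpep, which encodes aminopeptidase A, rose from 24.9 and 38.1 to 108 and 77.8 (log2 fold change 1.56, SE 0.22, adjusted p = 0.0168). Naaladl1 rose from 9.42 and 8.29 to 96.7 and 92.6 (3.42, SE 0.12, adjusted p = 9.44e-05). These 3 genes were named because they were called, which favours groups that lie apart. Unlike those of Alpi and Akp3, their groups did not overlap, as was the case for 58.4% of all tested genes. Their SDs within groups were smaller than the differences between the group means.

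Of the 13 genes of lipopolysaccharide and bacterial sensing, 10 were tested and 1 was called, with a list median of -0.07. Tlr5, the flagellin receptor gene, had 7.54 and 6.71 normalized CPM in control organoids, as compared with 2.62 and 3.79 in mimic organoids. Its log2 fold change was -1.15 (SE 0.23), and its edgeR adjusted p was 0.0460.

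**Figure D5:**
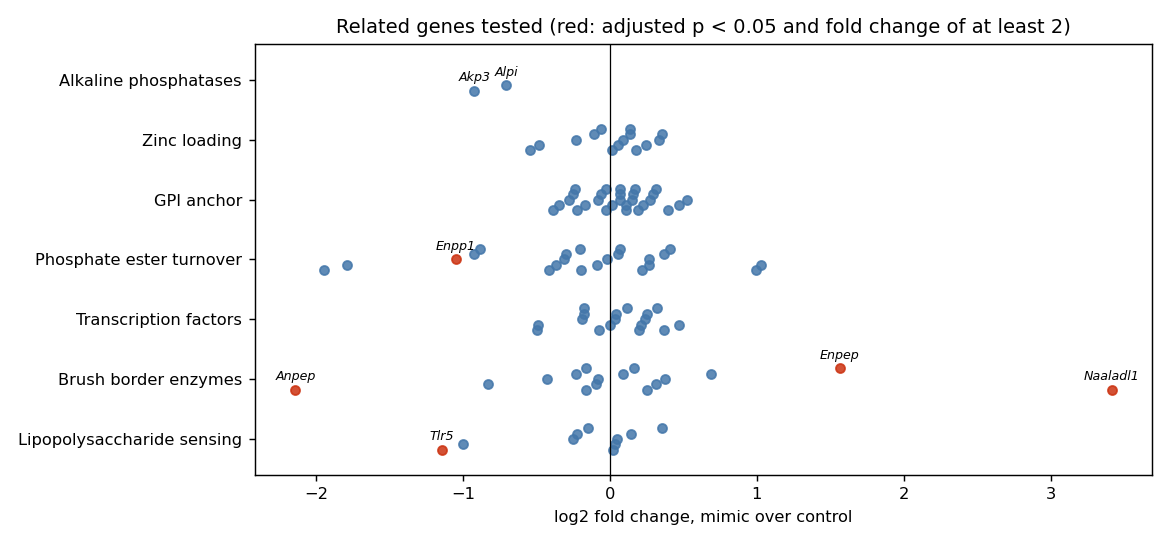
Log2 fold change of mimic over control (x axis) for the tested genes of the family and of 6 related lists (y axis, 1 point per gene, heights within a row only spread the points), with called genes in red and named. The 5 red points are Enpp1, Anpep, Enpep, Naaladl1 and Tlr5, and Alpi and Akp3 are at -0.71 and -0.93.

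Of the genes next to the family on the chromosome, only Gm37447, Usp48, Rap1gap, Rap1gapos, Ece1 and Eif4g3 were tested. Of these, 0 were called, against 2.06% of all tested genes, so that a count of 0 in so few genes says little. Around Alpi, the pseudogenes Akp-ps1 and Gm29372 had 0 counts in all libraries, and Gm29371, Gm29374 and Ecel1 had at most 2 counts in any library. Gm37447 had 45 and 31 counts in control, 27 and 20 in mimic organoids, with a log2 fold change of -0.63 (adjusted p = 0.312). Around Alpl, Usp48, Rap1gap and Ece1 had log2 fold changes between -0.08 and -0.01, Rap1gapos had -0.39 and Eif4g3 had 0.50 (adjusted p = 0.0742). The tables do not say whether strand was used in counting.

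The libraries had between 31104884 and 38111731 expected counts. Their epithelial origin was checked by markers, since the 8 intestinal epithelium genes summed to between 2643 and 3125 TPM, whereas the neutrophil, mesenchymal, endothelial and pluripotent lists each stayed below 1 TPM in every library. Leukocyte markers summed to between 2.51 and 3.2 TPM. Neutrophils and embryonic cells are other known sources of alkaline phosphatase, and 5 of 9 neutrophil genes and 5 of 7 pluripotent and germ cell genes were listed at 0 in all libraries. In bulk samples, fewer cells of a type and less RNA per cell cannot be told apart.

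Markers of cell types and of position along the intestine differed between the libraries too. The 10 enterocyte markers, Alpi among them, summed to 3149 and 4411 TPM in the controls and to 2669 and 2609 with the mimic, and 1 of them, Anpep, was called. The 8 markers of the proximal small intestine, Fabp1 among them, summed to 1173 and 2104 TPM in the controls and to 990 and 798 with the mimic. Of these, 3 were called lower (Pdx1, Onecut2 and Slc40a1), and 2 of 7 tested distal markers were called higher (Osr2 and Cubn), against the 2.06% called over all tested genes. Control 2, the highest library for Alpi and Akp3, was also the highest in the proximal and enterocyte sums. These 2 sums are not independent, since both hold Fabp1 and Lct. Fabp1, itself among the genes picked for likeness to Alpi, was the largest part of the proximal sum. Its TPM were 948 for control 1, 1749 for control 2, 843 for mimic 3 and 636 for mimic 4. Of the enterocyte markers, 3 (Sis, Lct and Mttp) had log2 fold changes above 0 and 7 below. Paneth cell markers summed to 1803 TPM in control 1, 747 in control 2, 829 in mimic 3 and 959 in mimic 4, with 0 of 5 called. Of the 5 stem cell markers 1 was called lower, and of the 5 goblet cell markers 0 were called. The part of these cell types and regions in the levels of Alpi and Akp3 was not tested.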

How the data were processed

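Bulk RNA-seq of 4 mouse SI organoid libraries was used, 2 per group as the labels give them. Reads were single, of 100 cycles. The authors used Trimmomatic and then RSEM on GRCm38 and deposited expected counts per gene without normalization and TPM. The annotation release is not given in the sources used here. Libraries were depleted of ribosomal RNA by the study's methods but poly(A)-selected by the labels. In each table, 3 further columns matched no sample and were not used.

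Expected counts were rounded. The test was edgeR's (version 4.0.16, under R 4.3.3) quasi-likelihood F test after filterByExpr and TMM scaling, with glmQLFit in its non-legacy form and Benjamini-Hochberg adjustment over 17155 genes. SE is the log2 fold change divided by the square root of F. Calls needed an adjusted p below 0.05 and a fold change of at least 2. Depth was 31104884 to 38111731 counts, and no library repeated another of its group (chi-square per degree of freedom 33.9 and 17.8). The steps were tested on simulated counts.

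The members, lists and tests were chosen with earlier results of these data known. Named were the 4 members, called genes of each related list or otherwise its 3 highest in TPM, the 5 genes most like each tested member and the 4 nearest genes on each side. Identifiers were matched to symbols for 55141 of 55487 genes. Transcripts came from GENCODE M21, and promoters and the miRNA from RefSeq tables. Coding sequences were aligned with Biopython 1.88, in place of the proteins planned. Alternatives were edgeR's exact, likelihood-ratio, robust and legacy forms, DESeq2 1.42.0, other scalings and filters, limma 3.58.1 on log2(TPM + 1) and log2(TPM + 0.1), the summed paralogs and leaving out each library. Fold changes from TPM understate changes of low genes. Plots were drawn with matplotlib 3.10.9.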

Additional observations from a re-analysis of the deposited data

How the results depend on the processing

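The log2 fold changes of Alpi and Akp3 kept their sign in 17 of 18 alternatives each, and the exception was the fit without control replicate 2, where they were 0.22 and 0.87. Neither passed the threshold in any alternative, apart from the summed paralogs, for which no p is given. Leaving out 1 library moved Alpi between -1.41 and 0.22 and Akp3 between -2.30 and 0.87. The other alternatives gave -0.75 to -0.56 for Alpi and -0.97 to -0.63 for Akp3. The legacy form of the quasi-likelihood test was added after the data were seen. The number of genes called, 354, was 730 with edgeR's exact test, 773 with its likelihood-ratio test, 158 without a filter on low counts, 71 and 27 with limma on log2(TPM + 1) and log2(TPM + 0.1), and 2 when limma on log2(TPM + 1) was run with no filter. With 1 library left out it was 285 to 891, the highest without control replicate 2, and 533 without mimic replicate 4. Of the related genes, 5 were called, and 8 with DESeq2, 3 without a filter on low counts, 1 with limma at either pseudocount and 0 with limma without a filter. Leaving out 1 library gave 6 to 8 related genes, the highest again without control replicate 2. The causes were not tested. Without a filter, edgeR adjusted over 29212 genes. Depth limits Alppl2 and Alpl, at 7 counts or fewer per library, and the spread between 2 libraries limits Alpi and Akp3. No paired analysis was possible because the 2 groups share no replicate number.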
